A study of Homo sapiens with 4 samples.

Results

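The genes described here are TNFSF18 and 9 other members of the tumour necrosis factor (TNF) superfamily, 5 ligand genes and 5 receptor genes out of the 61541 genes in the count table. TNFSF18 was chosen by measured values, because its count was higher in cadmium-resistant cells in the contrast described below, and the other 9 were chosen as relatives of it with that result known. The ligands are TNFSF18, TNFSF4, TNFSF9, TNFSF10 and TNFSF15, and the receptors are TNFRSF18, TNFRSF9, TNFRSF10A, TNFRSF10B and TNFRSF10D. RNA was sequenced from MDA-MB-231 cells, an established human triple-negative breast cancer line with a mesenchymal phenotype. The cadmium-resistant cells (n = 2 libraries) had been passaged serially in medium with CdSO4, ending at 10 µM, and the control cells (n = 2 libraries) were the same line without cadmium treatment. All libraries thus came from 1 line, and the resistant cells are a selected population, so the comparison is between long-term selected and untreated cells and not between acute exposures. Libraries are named by the numbers in the count table, control 2 and control 3, cadmium 1 and cadmium 2.

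TNF superfamily ligands are mostly membrane-anchored trimers that bind receptors with cysteine-rich extracellular repeats. Receptors without a death domain recruit TRAF adaptors and activate NF-κB, and receptors with a death domain can also start apoptosis through FADD and caspases. TNFSF18 (GITRL) binds TNFRSF18 (GITR), TNFSF4 (OX40L) binds TNFRSF4 (OX40) and TNFSF9 (4-1BBL) binds TNFRSF9 (4-1BB), 3 pairs best known for costimulation of T cells. TNFSF10 (TRAIL) binds the death receptors TNFRSF10A and TNFRSF10B and the decoy receptors TNFRSF10C and TNFRSF10D. TNFSF15 (TL1A), first described in endothelial cells, binds TNFRSF25 and the soluble decoy TNFRSF6B.

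TNFSF18 (ENSG00000120337) lies on the minus strand of chromosome 1 from 173039202 to 173050941 in hg38, and TNFSF4 (ENSG00000117586) lies on the same strand from 173183731 to 173207331. TNFSF15 (ENSG00000181634) lies on chromosome 9 from 114784652 to 114806039, also on the minus strand. The promoters of these ligand genes are shown because their counts were above both controls in both cadmium libraries. Each sequence runs 5′ to 3′ on the gene's strand, from 250 bases before to 50 bases after the RefSeq gene start (GRCh38.p14). The RefSeq table starts TNFSF4 and TNFSF15 inside the gene spans of the count table. On the minus strand those spans begin at their higher coordinates, 173207331 for TNFSF4 and 114806039 for TNFSF15. The TNFSF4 window reaches 173205782, near the beginning of its span, and the TNFSF15 window reaches 114792780, well inside the gene. Both windows thus surround an internal start and not the outermost start of the counted gene. Capitals mark the motif matches discussed after the sequences.
TNFSF18 promoter, chr1:173050892-173051191, minus strand: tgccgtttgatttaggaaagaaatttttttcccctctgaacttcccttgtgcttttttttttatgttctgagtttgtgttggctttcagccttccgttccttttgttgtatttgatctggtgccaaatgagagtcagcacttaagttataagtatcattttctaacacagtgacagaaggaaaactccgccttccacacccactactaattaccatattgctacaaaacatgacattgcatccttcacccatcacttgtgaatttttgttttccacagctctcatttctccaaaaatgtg
TNFSF4 promoter, chr1:173205483-173205782, minus strand: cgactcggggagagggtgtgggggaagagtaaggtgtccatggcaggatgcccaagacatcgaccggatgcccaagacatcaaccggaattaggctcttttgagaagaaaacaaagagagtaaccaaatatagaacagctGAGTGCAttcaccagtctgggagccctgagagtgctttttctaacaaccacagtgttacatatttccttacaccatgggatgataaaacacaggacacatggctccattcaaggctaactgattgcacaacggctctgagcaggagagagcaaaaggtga
TNFSF15 promoter, chr9:114792481-114792780, minus strand: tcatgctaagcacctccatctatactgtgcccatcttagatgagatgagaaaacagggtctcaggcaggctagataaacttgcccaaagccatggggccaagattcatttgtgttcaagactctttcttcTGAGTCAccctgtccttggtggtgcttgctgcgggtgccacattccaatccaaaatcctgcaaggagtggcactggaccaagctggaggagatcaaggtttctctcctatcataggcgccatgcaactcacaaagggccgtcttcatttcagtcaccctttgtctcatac

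Motifs were searched on both strands, and 7 of the 10 members had a promoter in the table. TNFRSF10A, TNFRSF10B and TNFRSF10D did not. The metal response element core was searched as TGCACNC and TGCGCNC, and the AP-1 site as TGANTCA, the forkhead site as TGTTTAC and the NF-κB site by its name. The window of TNFSF18 held no match to any of these. The window of TNFSF4 held 1 match to TGCACNC on the opposite strand, starting 110 bases before the gene start and capitalised there as GAGTGCA. The window of TNFSF15 held 1 AP-1 match, starting 120 bases before the gene start. Among the other members, TNFSF10 had 2 TGCACNC matches, and TNFRSF9 had an AP-1 match and an overlapping pair of NF-κB matches. Of 35116 promoters of the same length, 7012 held TGCGCNC, 12.1% held TGCACNC, 7.71% held the AP-1 site, 3.42% held the forkhead site and 5.91% held the NF-κB site. A match describes letters in the window and not an occupied site.

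Depth was similar across libraries, with 51934729 to 61916007 reads assigned to genes in each. The controls differed from each other far more than the cadmium libraries did. Of the 12924 genes averaging 100 or more normalized counts, 14.2% differed more than 2-fold in the control pair, against 0.317% in the cadmium pair. Of the line's markers, VIM, CD44, AXL and KRT18 summed to between 2682 and 2879 TPM, a measure of transcript abundance scaled for gene length and depth, while ESR1 and PGR stayed below 1 TPM in all libraries. ERBB2 and EPCAM, listed as low in this line, were not absent, and the 5 markers in that list summed to 73.3 to 121 TPM in controls and 61.5 to 62.4 TPM in cadmium libraries. Of 9 immune markers, CD3E and MS4A1 had no read, and the list summed to 10.1 to 10.9 TPM in controls and 6.77 to 6.99 TPM in cadmium libraries. Only 6 of the 9 were below 1 TPM in all libraries, and the highest value of a single immune marker in any library was 9.73 TPM. The 6 endothelial markers summed to 8.90 to 10.8 TPM in controls and 11.0 to 12.2 TPM in cadmium libraries, mostly from PECAM1 and KDR. The remaining 4 endothelial markers were below 1 TPM in all libraries. What part other cell types had in the values below was not tested, and in bulk RNA fewer cells of a type and less RNA per cell cannot be told apart.

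TNFSF18 had normalized counts of 245 and 407 in controls 2 and 3, and 2892 and 2138 in cadmium 1 and 2. Both cadmium libraries were several times above both controls, and the groups did not overlap. Controls averaged 326 ± 115 and cadmium libraries 2515 ± 534 normalized counts (SD, n = 2 each), a ratio of means of 7.71. The log2 fold change was 2.95 ± 0.36 (SE), and it ran from 2.39 to 3.56 over the 4 cadmium to control pairings. These values chose the gene and are given as a description, with no test. Before scaling, 259 and 383 reads stood behind the control values and 2906 and 2165 reads behind the cadmium values. No base of its exons is shared with another annotated gene. Without control 2 the estimate was 2.63, and without control 3 it was 3.35.

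**Figure D1:**
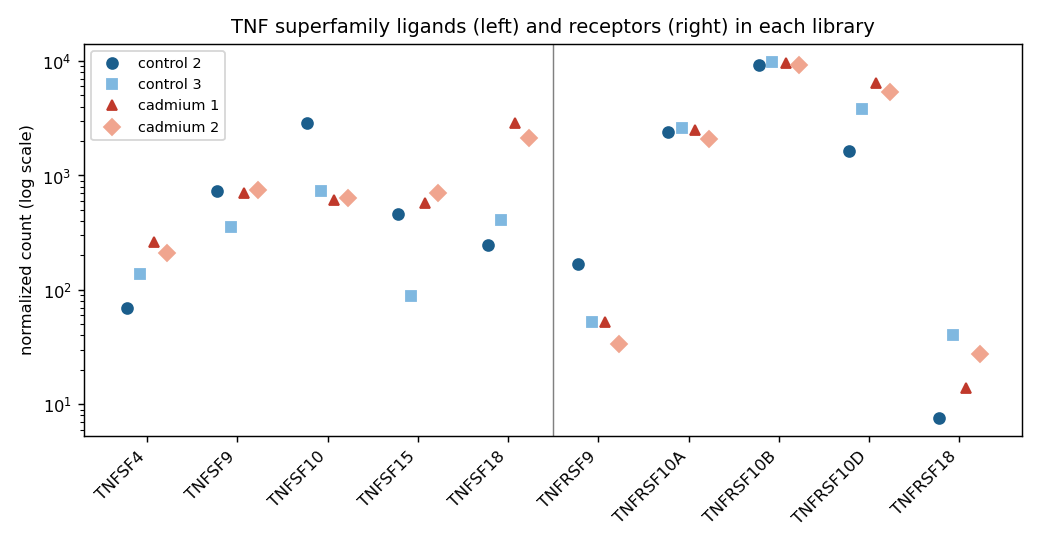
Normalized counts (log scale) of the 10 members in the 4 libraries, with a point for each library and ligands left of receptors. TNFSF18 is the member whose cadmium libraries, at 2892 and 2138, lie farthest above its controls, at 245 and 407, while several others show a wide gap between the control points.

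The remaining members were read against all genes tested. DESeq2 placed 0.601% of 19816 genes above control and 0.535% below control at an adjusted p-value below 0.1. None of the 9 other members passed in either direction, and 3 of them had an unadjusted p-value below 0.05 (TNFSF4 and TNFRSF10D higher, TNFSF10 lower), where 3.04% of all genes tested were higher and 3.88% lower at that threshold. The edgeR test and limma-voom called no gene at all (0.0% of 19241). When 1 control was left out, TNFSF9, TNFSF15 and TNFRSF10D passed without control 2, and TNFSF4, TNFSF10, TNFRSF9 and TNFRSF10D passed without control 3, with the spread resting on the cadmium pair alone in both fits. Many other genes passed there too, 7.36% higher and 7.43% lower without control 2, and 13.5% higher and 17.7% lower without control 3. Among the 9, 4 log2 fold changes were above 0 and 5 below, with a median of -0.011 against -0.023 for all genes tested. Both cadmium libraries were above both controls for 3 of the 9 (TNFSF4, TNFSF15 and TNFRSF10D), where 20.3% of all genes tested were. Both were below for TNFSF10 alone, where 19.9% of all genes tested were. All 10 members passed the filter on low counts.

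TNFSF4, the OX40 ligand gene which lies beside TNFSF18 on chromosome 1, had normalized counts of 70.0 and 137 in controls 2 and 3, and 262 and 208 in cadmium 1 and 2. The groups did not overlap, but control 3 was 1.96 times control 2. DESeq2 put its log2 fold change at 1.18 ± 0.48 (SE), with an adjusted p-value of 0.416. The 95% interval of that log2 fold change was 0.24 to 2.13, and the pairings gave 0.60 to 1.89. It was 0.78 without control 2 and 1.74 without control 3.

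TNFSF15, the TL1A gene, had normalized counts of 465 and 89.3 in controls 2 and 3, and 572 and 704 in cadmium 1 and 2. Control 2 lay close to the cadmium libraries and control 3 far below them. The log2 fold change was 1.20 ± 0.65 (SE, DESeq2 adjusted p-value 0.757). Its pairings ran from 0.30 to 2.96, and the estimate was 2.83 without control 2 and 0.45 without control 3.

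TNFSF9, the 4-1BB ligand gene (ENSG00000125657, chromosome 19, 6531026 to 6535924), had normalized counts of 730 and 353 in controls 2 and 3, and 709 and 747 in cadmium 1 and 2. Control 2 lay between both cadmium values, so the groups overlapped. DESeq2 estimated 0.43 ± 0.42 (SE) as its log2 fold change, at an adjusted p-value of 1.00. This was 1.04 without control 2 and -0.016 without control 3.

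TNFSF10, the TRAIL gene (ENSG00000121858, chromosome 3, 172505508 to 172523475), was the member lower in both cadmium libraries. Its normalized counts were 2875 and 736 in controls 2 and 3, and 607 and 636 in cadmium 1 and 2. Control 3 was close to the cadmium libraries, and control 2 was 3.91 times control 3. DESeq2 put the log2 fold change at -1.54 ± 0.56 (SE), with an adjusted p-value of 0.278. Without control 2 it was -0.25, and without control 3 it was -2.22.

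**Figure D2:**
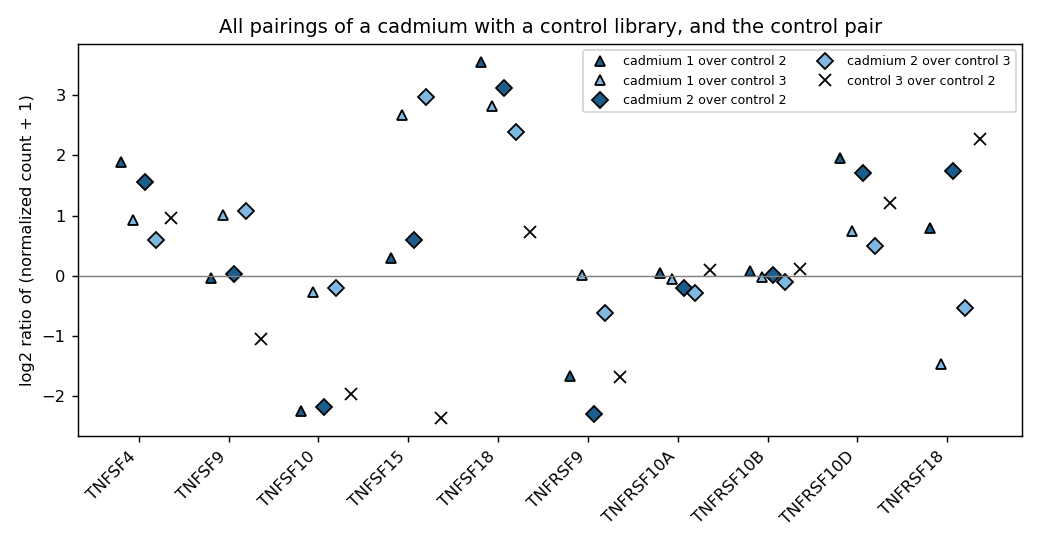
Log2 ratios of normalized counts plus 1 for each cadmium to control pairing (points), with the ratio of control 3 over control 2 (cross) for each member. TNFSF18 has all 4 pairings between 2.39 and 3.56, while the pairings of TNFSF15, from 0.30 to 2.96, separate by control.

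The TRAIL receptors had different values, although their genes stand near each other on chromosome 8. TNFRSF10B (DR5, ENSG00000120889, 23020133 to 23069031), a death receptor, had normalized counts of 9148 and 9842 in controls 2 and 3, and 9654 and 9189 in cadmium 1 and 2. All libraries lay close together, and the log2 fold change was -0.01 ± 0.24 (SE, DESeq2 adjusted p-value 1.00). The 95% interval was -0.49 to 0.46. TNFRSF10A (DR4, ENSG00000104689, 23190452 to 23225102), the other death receptor, had normalized counts of 2410 and 2573 in controls 2 and 3, and 2484 and 2101 in cadmium 1 and 2. Its groups overlapped, at a log2 fold change of -0.12 and a 95% interval of -0.64 to 0.40. Other annotated genes share 16.7% of its exon bases and 7.52% of those of TNFRSF10B, and reads in shared bases were not counted. These receptor genes are also paralogs, and reads mapping to several places were dropped.

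TNFRSF10D (DcR2, ENSG00000173530, 23135588 to 23164027), a decoy receptor whose truncated cytoplasmic part cannot signal apoptosis, had normalized counts of 1647 and 3826 in controls 2 and 3, and 6378 and 5400 in cadmium 1 and 2. Both cadmium libraries were above both controls, and control 3 was 2.32 times control 2. The log2 fold change was 1.11 ± 0.42 (SE, DESeq2 adjusted p-value 0.338). It was 0.62 without control 2 and 1.83 without control 3. TNFRSF10C, the membrane-bound decoy that lacks a cytoplasmic part, had normalized counts of 53.9 and 122 in controls and 87.6 and 91.8 in cadmium libraries, giving a log2 fold change of 0.03, and other genes share 33.0% of its exon bases. The soluble TRAIL and RANKL decoy TNFRSF11B had a log2 fold change of 0.20, from normalized counts of 278 and 89.3 in controls to 212 and 210 in cadmium libraries. Without control 2 it was 1.24, and without control 3 it was -0.41.

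The receptors of the costimulatory ligands were scarce. TNFRSF18, the receptor of TNFSF18 (ENSG00000186891, chromosome 1, 1203508 to 1206592), had 8 and 38 reads in controls 2 and 3, and 14 and 28 in cadmium 1 and 2. The groups overlapped, and at this depth the log2 fold change of -0.20 had a standard error of 1.08. Its sign depended on the library left out, at -0.96 without control 2 and 1.45 without control 3. TNFRSF9, the receptor of TNFSF9 (ENSG00000049249, chromosome 1, 7915871 to 7943165), had normalized counts of 169 and 52.1 in controls 2 and 3, and 52.7 and 33.6 in cadmium 1 and 2. Control 2 alone was high, and the log2 fold change of -1.36 ± 0.71 (SE) came with a DESeq2 adjusted p-value of 0.737. It was -0.27 without control 2 and -1.98 without control 3.

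The other partner receptors were TNFRSF4, TNFRSF25 and TNFRSF6B. TNFRSF4, the receptor of TNFSF4, had 2, 0, 0 and 1 reads, and was too low to test. A count of 0 leaves room for up to 3 reads, or 6 where mates are counted singly, and such limits cover counting error only. TNFRSF6B was listed at 0 in all libraries, and since all of its exon bases overlap other annotated genes, reads lying in its exons also overlap those genes and were dropped. TNFRSF25, a death domain receptor for TNFSF15, had normalized counts of 193 and 136 in controls 2 and 3, and 341 and 269 in cadmium 1 and 2. Both cadmium libraries were above both controls, with an estimate of 0.89 ± 0.39 (SE) on the log2 scale and a DESeq2 adjusted p-value of 0.531. Without control 2 that estimate was 1.16, and without control 3 it was 0.65.

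Levels of different members were compared as TPM, which divides counts by gene length. In control cells TNFRSF10B had the highest mean level of the 10, at 143 ± 15.1 TPM (SD, n = 2), followed by TNFRSF10A at 64.2 ± 6.43 TPM and TNFRSF10D at 59.2 TPM, whose libraries lay at 33.8 and 84.6 TPM. TNFSF18 was the sixth, at 9.04 ± 3.63 TPM, below TNFSF10 at 38.6 ± 31.0 TPM and TNFSF9 at 24.6 ± 11.0 TPM. From TNFRSF10A down to TNFSF9, each range overlapped the next, and TNFSF18 was apart from both of its neighbours. Below it TNFSF15, TNFSF4, TNFRSF18 and TNFRSF9 had mean levels from 2.61 to 1.29 TPM, and their ranges overlapped from each to the next. In cadmium-resistant cells TNFSF18 had a level of 70.9 ± 16.9 TPM and was the third, after TNFRSF10B at 145 ± 8.99 TPM and TNFRSF10D at 129 ± 18.6 TPM. The ranges of the latter pair overlapped. The range of TNFSF18 overlapped that of TNFRSF10A (60.5 ± 8.77 TPM) and was above that of TNFSF9 (34.3 ± 0.36 TPM). TPM used full gene lengths, although reads in exon bases shared with other genes were not counted. Such bases make up 16.7% of TNFRSF10A and 7.52% of TNFRSF10B, and TNFSF18 has none. TPM may thus understate these receptors, and the order of TNFSF18 and TNFRSF10A is not settled. TNFSF10 followed at 13.9 TPM, TNFSF15 at 6.31 TPM, TNFSF4 at 4.58 TPM and TNFRSF9 last at 0.53 TPM, with no overlap between neighbours in this lower end. TNFSF18 was the most abundant member ligand in cadmium-resistant cells, whereas TNFSF10 and TNFSF9 were above it in controls. Because TNFSF18 was chosen for its rise in these libraries, this change of place is a description and no separate finding. TNFRSF18 stayed low in both groups, at 1.46 ± 1.45 TPM in control and 1.25 ± 0.55 TPM in cadmium-resistant cells.

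**Figure D3:**
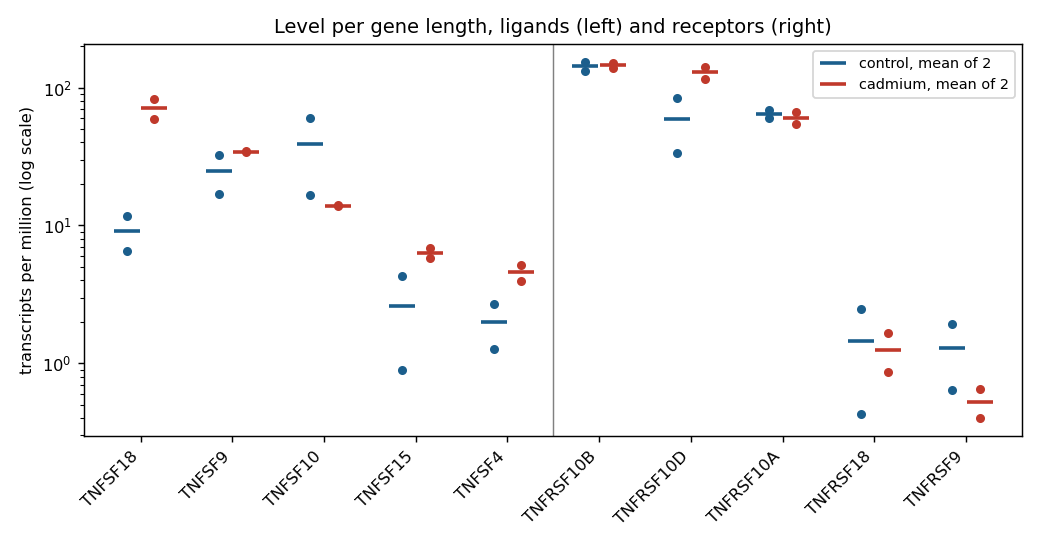
Level of each member in TPM (log scale) in control and cadmium-resistant cells, with points for libraries and bars for group means. By mean, TNFSF18, chosen because it rose, is in the sixth place in control (9.04) and the third in cadmium-resistant cells (70.9). Its range in cadmium-resistant cells overlaps that of TNFRSF10A, and TNFRSF10B is in first place in both groups.

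The wider superfamily list held 18 ligand and 29 receptor genes, including the 10 members. Of these 47 genes, 43 had a read and 35 passed the filter on low counts. DESeq2 placed 1 of the 35 above control, TNFSF18, which was chosen for it, and 1 below control, TNFRSF1B, set against 0.601% and 0.535% of all genes. The median log2 fold change over the 35 genes was 0.09, with 21 above 0 and 14 below. Over all genes tested it was -0.023, with 9398 above 0 and 10418 below. Without the 10 members, both cadmium libraries were above both controls for 7 of 25 genes, where 20.3% of all genes tested were. They were below for 4 of the 25, where 19.9% of all genes tested were. The 12 ligands tested had a median of 0.57 and the 23 receptors one of 0.05, but these include TNFSF18 and the other members chosen with results known. Without the 10 members, the 7 ligands tested had a median of -0.34 and the 18 receptors one of 0.15. The controls differed widely in this list, where 18 of the 35 genes differed more than 2-fold in the control pair and 1 in the cadmium pair, against 23.6% and 6.55% of all genes tested.

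TNFRSF1B (TNFR2), which binds TNF and lymphotoxin alpha and has no death domain, had normalized counts of 1797 and 1237 in controls 2 and 3, and 405 and 532 in cadmium 1 and 2. Both cadmium libraries were below both controls. A log2 fold change of -1.69 ± 0.34 (SE) was estimated, at a DESeq2 adjusted p-value of 2.67e-04. This log2 fold change ran from -1.95 to -1.40 as 1 library at a time was left out. TNFRSF1B passed with either control left out, as many genes did. It did not pass with either cadmium library left out, where the spread rests on the controls and few genes passed. With edgeR its adjusted p-value was 0.674. TNFRSF1A (TNFR1), the death domain receptor for TNF, had a log2 fold change of -0.05, and its controls spanned 9148 to 19144 normalized counts. Genes other than those fixed by rule are named here after their values were seen. Among them NGFR, the p75 neurotrophin receptor, had the highest log2 fold change of the 35 genes tested, 3.07 ± 1.25 (SE), at a DESeq2 adjusted p-value of 0.420. Its normalized counts were 631 and 81.9 in controls 2 and 3, and 3568 and 2438 in cadmium 1 and 2, so both cadmium libraries were above both controls while the controls differed 7.71-fold. Other annotated genes, including NGFR-AS1, share 27.2% of its exon bases. The ectodysplasin gene EDA had the lowest log2 fold change of the 35, -3.82, but its controls stood at 861 and 8.51 normalized counts and the groups overlapped. TNF itself was below the filter.

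**Figure D4:**
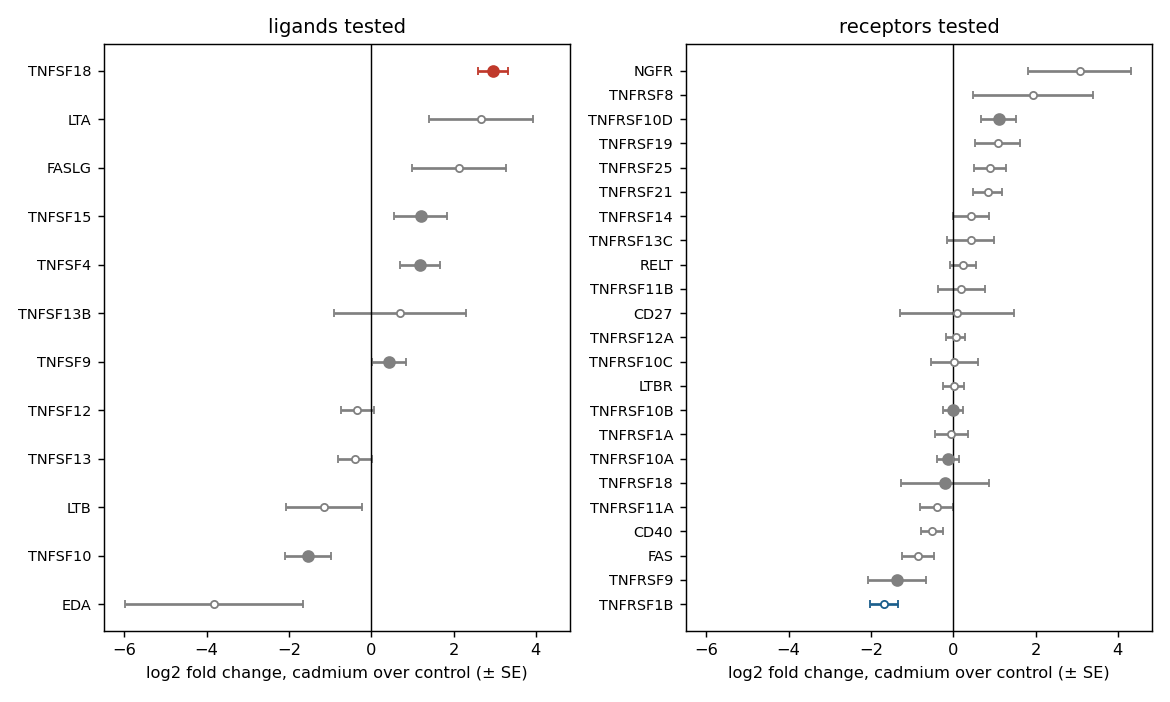
DESeq2 log2 fold changes (± SE) for the 35 superfamily genes tested, cadmium-resistant over control, with ligands and receptors apart and ordered by value. TNFSF18 (2.95) and TNFRSF1B (-1.69) are the genes at an adjusted p-value below 0.1, and the wide bar of NGFR (3.07) goes with its control spread.

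The signalling list held 36 genes downstream of these receptors, and all were tested. None was placed above control, where 0.601% of all genes tested were, and 1, BCL3, was placed below it, where 0.535% were. Of the 36, 2 had an unadjusted DESeq2 p-value below 0.05, both lower, beside the 3.88% of all genes tested that were lower at that threshold. For 6 of the 36 both cadmium libraries were above both controls, and for 7 they were below, beside 20.3% and 19.9% of all genes tested. The median log2 fold change was -0.09, within a range of -1.07 to 0.62. BCL3, an atypical IκB protein that acts with NF-κB p50 and p52, had normalized counts of 3746 and 4055 in controls 2 and 3, and 1533 and 2176 in cadmium 1 and 2. Its groups did not overlap, and its log2 fold change was -1.07 ± 0.30 (SE, DESeq2 adjusted p-value 0.044). This log2 fold change ran from -1.35 to -0.85 as 1 library at a time was left out. BCL3 passed with either control left out and did not pass with either cadmium library left out, where few genes passed. With edgeR its adjusted p-value was 0.674. The 11 TRAF, TRADD, FADD, RIPK1 and similar adaptors had log2 fold changes of -0.32 to 0.44, and none passed. The 9 death and inhibitor genes, such as the caspase-8 gene CASP8 and its inhibitor CFLAR, ran from -0.63 to 0.62, and none passed. Of the 16 NF-κB genes BCL3 alone passed. NFKBIA, which encodes the inhibitor IκBα and is named after its value was seen, stood at -0.62 on the log2 scale, at a DESeq2 adjusted p-value of 0.561.

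The chromosome 1 block around TNFSF18 was examined because it holds FASLG and TNFSF4 as well. Within 2 Mb of TNFSF18, 29 other genes averaged 10 or more normalized counts, and their log2 fold changes had a median of 0.06 and ran from -0.87 to 2.13. None of them passed DESeq2, where 0.601% of all genes tested were placed above control and 0.535% below. Both cadmium libraries were above both controls for 7 of the 29, beside 20.3% of all genes tested. The nearest gene on the lower-coordinate side was the long noncoding RNA ENSG00000224000, from 172906900 to 172907684, with 3, 10, 16 and 21 reads. The nearest on the other side was the pseudogene GOT2P2, from 173141100 to 173142350, with a log2 fold change of -0.87. FASLG, the Fas ligand gene, had the highest value in the block, a log2 fold change of 2.13 ± 1.14 (SE), from 3 and 7 reads in controls to 25 and 20 in cadmium libraries. The well expressed genes SUCO (0.12) and PRDX6 (-0.01), named after their values were seen, had log2 fold changes near 0. Leaving out the superfamily genes, 18 genes in the block averaged 100 or more normalized counts, and their log2 fold changes had a median of 0.05 and ran from -0.32 to 0.81.

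**Figure D5:**
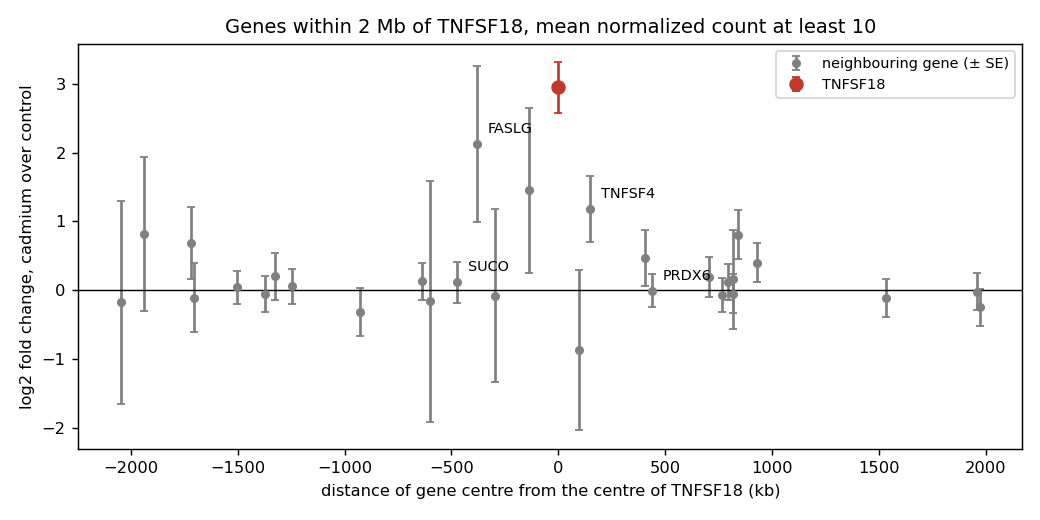
DESeq2 log2 fold change (± SE) of genes within 2 Mb of TNFSF18, against distance from its centre, with FASLG, TNFSF4, PRDX6 and SUCO labelled. TNFSF18 (2.95) has the highest value, followed by the few-read genes FASLG (2.13) and ENSG00000224000 (1.45) and by TNFSF4 (1.18), and the 29 genes beside TNFSF18 have a median of 0.06.

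The genes with the pattern most like that of TNFSF18 were found by the Euclidean distance between centred log2(normalized count + 1) profiles over the 4 libraries. Among 14356 genes averaging 50 or more normalized counts, the nearest were LRRN1 at a distance of 0.443, LINC01204 at 0.475, ARHGAP29-AS1 at 0.491, SLC44A5 at 0.559 and CNKSR2 at 0.607, where the median gene was at 3.09. LRRN1, a leucine-rich repeat membrane protein gene, had normalized counts of 74.8 and 151 in controls 2 and 3, and 859 and 515 in cadmium 1 and 2. Of the other members the nearest was TNFSF4, at a distance of 1.74 and the 131st place, followed by TNFRSF10D at 1.79 and the 147th place and TNFSF15 at 2.62 and the 1724th place. Distances over 4 libraries in 2 groups describe likeness in these libraries only.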

How the data were processed

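Total RNA from MDA-MB-231 cells was sequenced as read pairs, with 2 control and 2 cadmium-resistant libraries. The labels call the controls biological replicates and the cadmium samples replicates, so for the cadmium pair the spread between libraries, and p-values with it, may be technical. The labels also list the molecule as genomic DNA, although the protocol extracts total RNA. The authors trimmed the reads, used hisat2 to align them to hg38, and ran featureCounts 2.0.1 with Ensembl genes. They deposited raw, unnormalized counts for each gene beside another column with its length. Per the file header only the annotation and output options were set, so strand was ignored, reads on several genes or places were dropped and each mate was counted. Among counts from 1 to 20, even numbers made up 70.6% to 71.5%, so a count overstates the number of fragments. The table heads its control columns 2 and 3, but control titles are numbered 1 and 2, and these columns were given a group and no replicate number.

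Counts were tested over the whole table with DESeq2 1.42.0 in R 4.3.3 (2-sided Wald test, design of group, Benjamini-Hochberg adjustment, threshold 0.1), the tool the study used. Genes averaging under 7.69 normalized counts were left out by independent filtering. Size factors were 1.06, 0.940, 1.00 and 1.01 in the order control 2, control 3, cadmium 1, cadmium 2. Symbols matched 61369 of the genes. TPM was computed from counts and the deposited lengths. With 2 against 2 libraries a permutation test cannot go below p = 0.333, so none was used. Alternatives were edgeR 4.0.16, limma 3.58.1 (voom), other scaling factors, filters and thresholds, halved counts and leaving out each library. The fits were tested on simulated data. Plots used matplotlib 3.10.9 in Python 3.11.15.

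The members, the lists and the tests were chosen with earlier results of these data known. Genes named are the members, their partner receptors, called genes of the superfamily and signalling lists, the nearest gene on each side of TNFSF18 averaging 10 or more normalized counts, and the 5 genes most like it. Other genes are said to be named after their values were seen. One marker gene is not reported here, and binding and accessibility data of the study were not analysed.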

Additional observations from a re-analysis of the deposited data

How the results depend on the processing

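The calls depended on the test. The edgeR quasi-likelihood test called 0 of 19241 genes (1422 at an unadjusted p below 0.05, smallest adjusted p 0.674) and limma-voom also 0 (1423, smallest adjusted p 0.656), so both gave 0 calls in each direction over all genes and in the superfamily and signalling lists. Upper-quartile factors gave 152 higher and 88 lower genes, where DESeq2 with its own factors gave 119 and 106. Requiring at least 10 counts in 2 libraries gave 2 higher superfamily genes, the added one being NGFR.

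Leaving out 1 library at a time gave 9 to 2678 higher and 5 to 3511 lower genes over all genes, 1 to 11 higher and 0 to 8 lower superfamily genes, and 0 to 4 higher and 0 to 11 lower signalling genes. The high ends came without control 3, and the cause was not tested. Leaving out either control rests the spread on the cadmium pair, with the lone library assumed to vary likewise. TNFSF18 kept a log2 fold change of 2.63 to 3.35. Signs turned for TNFSF9 (-0.016 to 1.04), TNFRSF18 (-0.96 to 1.45, and 0.20 under voom), TNFRSF10B (-0.065 to 0.031, and 0.049 with upper-quartile factors), TNFRSF10C (-0.45 to 0.72) and TNFRSF11B (-0.41 to 1.24), and the cause was not tested. Of 108 member alternatives, 94 kept direction and side of the threshold, 7 turned sign, and 7 passed it only when a control was left out. No paired analysis was possible because column numbers of the controls differ from those of the labelled replicates. Counts near 0, as for TNFRSF4 and TNFRSF18, limit what this depth can show.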
